A study of Drosophila melanogaster with 6 samples.

Results

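The nuclear genes for mitochondrial ribosomal proteins were followed in Drosophila melanogaster, in whole larvae of the 1st instar with mutant or restored alleles of Kdm4A, which encodes a histone lysine demethylase. Members were the genes whose symbol in the platform's probe table starts with mRpL or mRpS followed by a digit, and 69 of 11983 measured genes met this rule, 44 named mRpL and 25 named mRpS. Each was read from a probe set that names no other gene, and where a gene had several, the one that was brightest on average was used. In the mutant larvae an insertion in dKDM4A, KG04636, stood over a deletion, ∆dKDM4A. In the control larvae both alleles were precise excisions, labelled KG06436 and NP0618. Whether KG04636 and KG06436 are the same insertion is not settled in the labels. Each genotype had 3 arrays, numbered 1 to 3 and called biological replicates in the labels, so that p-values measure the spread between these pools. A pool was 200 larvae, grown at 25 °C and collected about 48 after egg laying, with no unit given.

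Mitochondria keep their own ribosome, which translates the few proteins that the mitochondrial genome encodes, nearly all of them subunits of the respiratory chain and ATP synthase. Its RNAs are transcribed inside the organelle, while its proteins are encoded in the nucleus, made in the cytoplasm and imported. Many of these proteins have a bacterial counterpart, and others are found in mitochondria alone. Growing larval tissues need this machinery, and fly mutants in such genes are known for seizures (tko) and for small bodies (bonsai).

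Kdm4A, read as a check of the labels, had log2 values of 3.44, 3.41 and 3.29 in the mutant arrays and of 5.18, 5.26 and 5.46 in the control arrays (difference -1.92, SE 0.10, limma adjusted p = 0.00174). Medians of the 6 arrays lay between 5.29 and 5.37 and upper quartiles between 7.83 and 7.91, with no 2 arrays identical. Markers of muscle averaged 11.18 to 11.26 in the mutant arrays and 10.74 to 11.34 in the control arrays, and midgut proteases 12.70 to 12.80 in the mutant arrays and 12.60 to 12.97 in the control arrays, both far above the array medians. All values are log2 array values. They compare 1 gene across arrays, not the amounts of different genes. In RNA from whole larvae, fewer cells of a type and less RNA per cell cannot be told apart.

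All 69 members were bright. Their single values lay between 8.70 and 11.34, above the upper quartile of every array. The members lay on the arms X (11), 2L (12), 2R (10), 3L (17) and 3R (19) and none on chromosome 4, no 2 of them adjoined each other in the order of measured genes, and the nearest to Kdm4A, mRpL52, was 30 measured genes away. A further 2 genes, mRpS10 and mRpL53, were represented by probe sets that also name another gene, CG34316 or CG33155, and were no members. The probe set of mRpS10 and CG34316 differed between mutant and control by 0.06 (SE 0.13) and that of mRpL53 and CG33155 by -0.06 (SE 0.10). The symbols mRpL34 and mRpL37 were not analysed here.

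The genotypes were compared first. No mitochondrial ribosomal protein gene changed between the genotypes at a limma adjusted p under 0.05, against 0.159% of all genes, and at an unadjusted p under 0.05 there were 2 of 69, against 5.27%. Their log2 differences, mutant minus control, ran from -0.28 to 0.26 with a median of 0.00, where all genes had a median of -0.01 and a range from -3.03 to 3.78. There were 35 members above 0 and 34 below, with 48.22% of all genes above 0. The member mean was 10.01 ± 0.12 in the mutant and 10.01 ± 0.06 in the control (SD, n = 3 each). With the replicate number as a block in the fit, limma called 0 members as well, against 0.818% of all genes, and 3 members (mRpL20, mRpL36 and mRpL39) at an unadjusted p under 0.05, against 11.2%.

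The arrays bounded the size of any change. The 95% interval of the difference lay inside a 2-fold change in either direction for 69 of 69 members, against 92.85% of all genes, and inside a 1.5-fold change for 66 of 69, against 79.05%. The 3 whose intervals reached past 1.5-fold were mRpL39, mRpS22 and mRpS5, named here after their values were seen. Intervals of mRpL39 and mRpS22 lay mostly on 1 side of 0, from -0.61 to 0.05 and from -0.10 to 0.61, while that of mRpS5 was the widest, from -0.66 to 0.30. With the replicate number as a block the intervals of these 3 genes were narrower, but not those of every member. The SE of mRpS6, for example, was 0.10 with the block and 0.09 without it. With the block 69 of 69 members lay inside a 1.5-fold change, against 88.46% of all genes. The interval with the block was -0.51 to -0.05 for mRpL39 (limma adjusted p = 0.35), -0.01 to 0.52 for mRpS22 (limma adjusted p = 0.466) and -0.39 to 0.02 for mRpS5 (limma adjusted p = 0.509). Without the block the median SE was 0.10 for the members and 0.12 for all genes, and with it 0.09 for both. These intervals belong to each gene alone and are not adjusted over the 69.

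**Figure D1:**
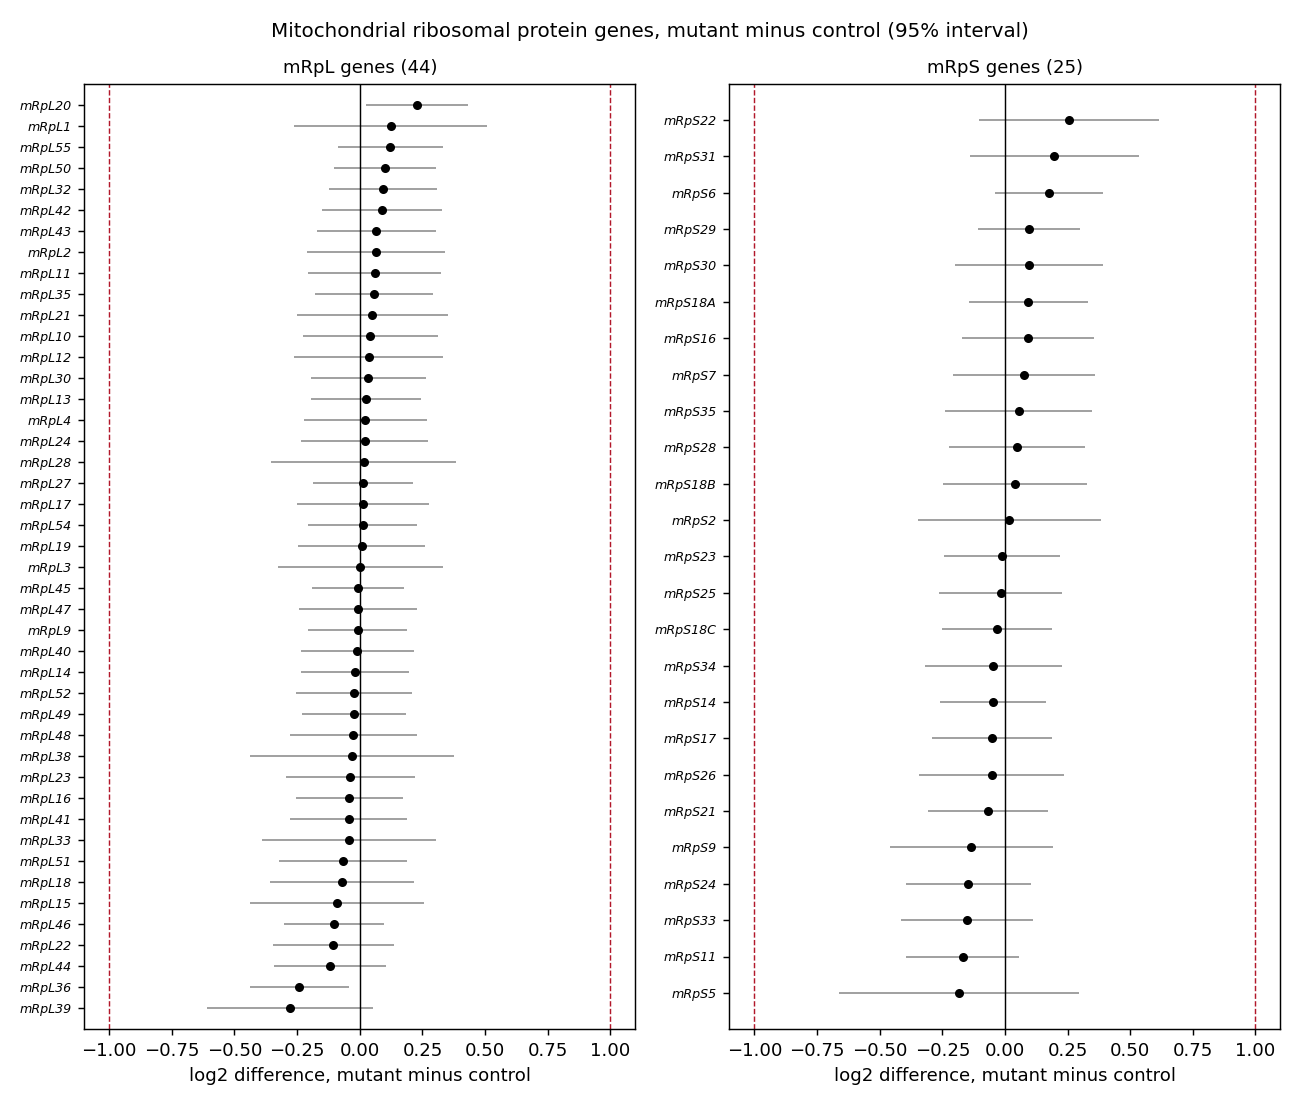
Log2 difference, mutant minus control, of each mitochondrial ribosomal protein gene (points) with its 95% limma interval (bars), in 2 panels for mRpL and mRpS genes, ordered by size; n = 3 arrays per genotype. The dashed lines mark a 2-fold change, and all 69 intervals lie between them.

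Of the large subunit proteins, mRpL36 and mRpL20 had the smallest p. mRpL36, counterpart of a small bacterial protein of the same number, had values of 10.37, 10.49 and 10.40 in the mutant arrays and of 10.63, 10.63 and 10.71 in the control arrays. All 3 mutant values lay below the control values, with a difference of -0.24 (SE 0.08, limma adjusted p = 0.764). mRpL20, whose bacterial counterpart binds ribosomal RNA early in assembly, had values of 10.24, 10.36 and 10.27 in the mutant arrays and of 10.03, 10.01 and 10.14 in the control arrays. Here all mutant values lay above the control values, with a difference of 0.23 (SE 0.08, limma adjusted p = 0.849). mRpL39, a protein that mammalian mitochondrial ribosomes have and bacterial ones lack, had values of 8.77, 9.23 and 9.08 in the mutant arrays and of 9.18, 9.36 and 9.38 in the control arrays. The groups overlapped, with mutant 1 lowest, and the difference of -0.28 (SE 0.14, limma adjusted p = 0.994) was the largest in size among the 69 members.

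Of the genes named mRpS, mRpS6 and mRpS11 had groups that did not overlap, in opposite directions. mRpS6, counterpart of a bacterial protein that pairs with the S18 protein, had values of 9.70, 9.85 and 9.71 in the mutant arrays and of 9.61, 9.49 and 9.63 in the control arrays (difference 0.18, SE 0.09, limma adjusted p = 0.998). mRpS11, from the platform of the small subunit, had values of 10.25, 10.48 and 10.41 in the mutant arrays and of 10.54, 10.50 and 10.59 in the control arrays (difference -0.17, SE 0.09, limma adjusted p = 0.998). Its second probe set, with 9.88, 10.17 and 10.12 in the mutant arrays and 10.08, 10.21 and 10.29 in the control arrays, had overlapping groups and a difference of -0.14 (SE 0.11). mRpS22, a mitochondria-specific protein that is altered in some human mitochondrial disease, had values of 9.92, 10.32 and 10.01 in the mutant arrays and of 9.60, 9.89 and 9.99 in the control arrays. These groups overlapped, and the difference was 0.26 (SE 0.15, limma adjusted p = 0.998). mRpS24, in mammals the counterpart of bacterial S3, had values of 9.50, 9.77 and 9.53 in the mutant arrays and of 9.73, 9.69 and 9.82 in the control arrays (difference -0.15, SE 0.10). mRpS31, another mitochondria-specific protein, had values of 9.86, 10.32 and 10.09 in the mutant arrays and of 9.75, 9.93 and 10.01 in the control arrays (difference 0.20, SE 0.14). Both had overlapping groups.

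In all, 6 of 69 members had groups that did not overlap, against 10.3% of all genes. Of these, 3 were higher in the mutant (mRpL20, mRpS6 and mRpL55, the last with a difference of 0.12) and 3 were lower (mRpL36, mRpS11 and mRpL46, the last with a difference of -0.10). Taken by replicate number, 8 members were higher in the mutant in all 3 pairs and 6 were lower in all 3, together 20.29% of the members, against 33.68% of all genes.

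The proteins of the catalytic core and of the stalks gave small differences. mRpL2, whose bacterial counterpart lies near the peptidyl transferase centre, had values of 9.50, 9.71 and 9.56 in the mutant arrays and of 9.35, 9.57 and 9.66 in the control arrays (difference 0.06, SE 0.11). mRpL3, near the same centre, had values of 8.94, 9.35 and 9.04 in the mutant arrays and of 8.97, 9.12 and 9.24 in the control arrays (difference 0.00, SE 0.14). In both genes mutant 2 was the highest array and the groups overlapped. mRpL4, which in bacteria lines the exit tunnel, had values of 10.05, 10.29 and 10.17 in the mutant arrays and of 10.04, 10.17 and 10.23 in the control arrays, so that the groups covered nearly the same range (difference 0.02, SE 0.10).

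mRpL12, the flexible stalk protein that recruits translation factors, had values of 10.999, 11.34 and 11.05 in the mutant arrays and of 10.96, 11.14 and 11.19 in the control arrays (difference 0.03, SE 0.12). Mutant 2 was the highest array for mRpL12, while the other mutant arrays lay within the control range. mRpL10, which holds mRpL12 at the stalk base, had values of 10.35, 10.67 and 10.45 in the mutant arrays and of 10.35, 10.47 and 10.51 in the control arrays (difference 0.04, SE 0.11). mRpL11, beside the site where translation factors bind, had values of 9.06, 9.37 and 9.10 in the mutant arrays and of 9.13, 9.05 and 9.18 in the control arrays (difference 0.06, SE 0.11). For the stalk base, too, 1 mutant array stood above the control range. mRpL44, which has a fold like that of a double-strand RNA nuclease, had values of 9.54, 9.76 and 9.56 in the mutant arrays and of 9.70, 9.75 and 9.77 in the control arrays (difference -0.12, SE 0.09). mRpL47 had values of 10.85, 10.94 and 10.66 in the mutant arrays and of 10.82, 10.80 and 10.84 in the control arrays (difference -0.01, SE 0.10). Its second probe set spread more widely, with 9.41, 9.98 and 9.69 in the mutant arrays and 9.58, 9.68 and 9.85 in the control arrays, at the same mean difference of -0.01 (SE 0.16).

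mRpS2, counterpart of the bacterial protein of that number, had values of 9.03, 9.56 and 9.35 in the mutant arrays and of 9.15, 9.36 and 9.38 in the control arrays (difference 0.02, SE 0.15). mRpS7, of the head, had values of 10.76, 11.03 and 10.94 in the mutant arrays and of 10.66, 10.91 and 10.93 in the control arrays (difference 0.08, SE 0.12). mRpS29, which in mammals binds GTP, had values of 9.26, 9.37 and 9.23 in the mutant arrays and of 9.23, 9.13 and 9.21 in the control arrays (difference 0.10, SE 0.08). In these 3 genes the highest value was again that of mutant 2. The mitochondria-specific mRpS35 had values of 9.37, 9.73 and 9.49 in the mutant arrays and of 9.34, 9.52 and 9.56 in the control arrays (difference 0.06, SE 0.12).

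A set of 3 paralogs shares the number S18. mRpS18A, whose mammalian counterpart sits in the large subunit despite its name, had values of 10.48, 10.68 and 10.46 in the mutant arrays and of 10.38, 10.41 and 10.54 in the control arrays. mRpS18B had values of 9.96, 10.30 and 9.93 in the mutant arrays and of 10.02, 10.04 and 10.01 in the control arrays. mRpS18C had values of 9.76, 9.97 and 9.80 in the mutant arrays and of 9.91, 9.83 and 9.88 in the control arrays. In each of the 3 paralogs mutant 2 was the highest array and the groups overlapped, with differences of 0.09 (SE 0.10), 0.04 (SE 0.12) and -0.03 (SE 0.09). As groups, the mRpL genes had a median difference of 0.01 and the mRpS genes of -0.01.

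The other 38 members, 27 named mRpL and 11 named mRpS, had differences between -0.15 (mRpS33) and 0.10 (mRpL50), with SEs from 0.08 to 0.14. None of these 38 had groups without overlap, 16 lay above 0 and 22 below, and each had a limma adjusted p of at least 0.998. Mutant 2 was the highest array for 29 of them. Their differences of numbers 3 and 1 lay between -0.10 (mRpS16) and 0.25 (mRpS28). By chromosome arm the median difference of the members was -0.02 on X, 0.02 on 2L, 0.03 on 2R, the arm of Kdm4A itself, 0.01 on 3L and -0.01 on 3R. All genes of those arms had medians between -0.01 and 0.01.

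Most members were highest on the same array, and this array was 1 of the 3 of its genotype. The mean over the 69 genes was 9.91, 10.15 and 9.98 in the mutant arrays and 9.97, 9.99 and 10.08 in the control arrays. The array numbered 2 of the mutant held the highest value of 51 members (17.46% of all genes were highest there), and mutant 1 held the lowest value of 34 (19.44% of all genes). With each gene set against its own mean, the median of the members was -0.11, 0.13 and -0.04 in mutants 1, 2 and 3, and -0.03, -0.02 and 0.06 in controls 1, 2 and 3. Over all genes these medians stayed between -0.02 and 0.02.

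**Figure D2:**
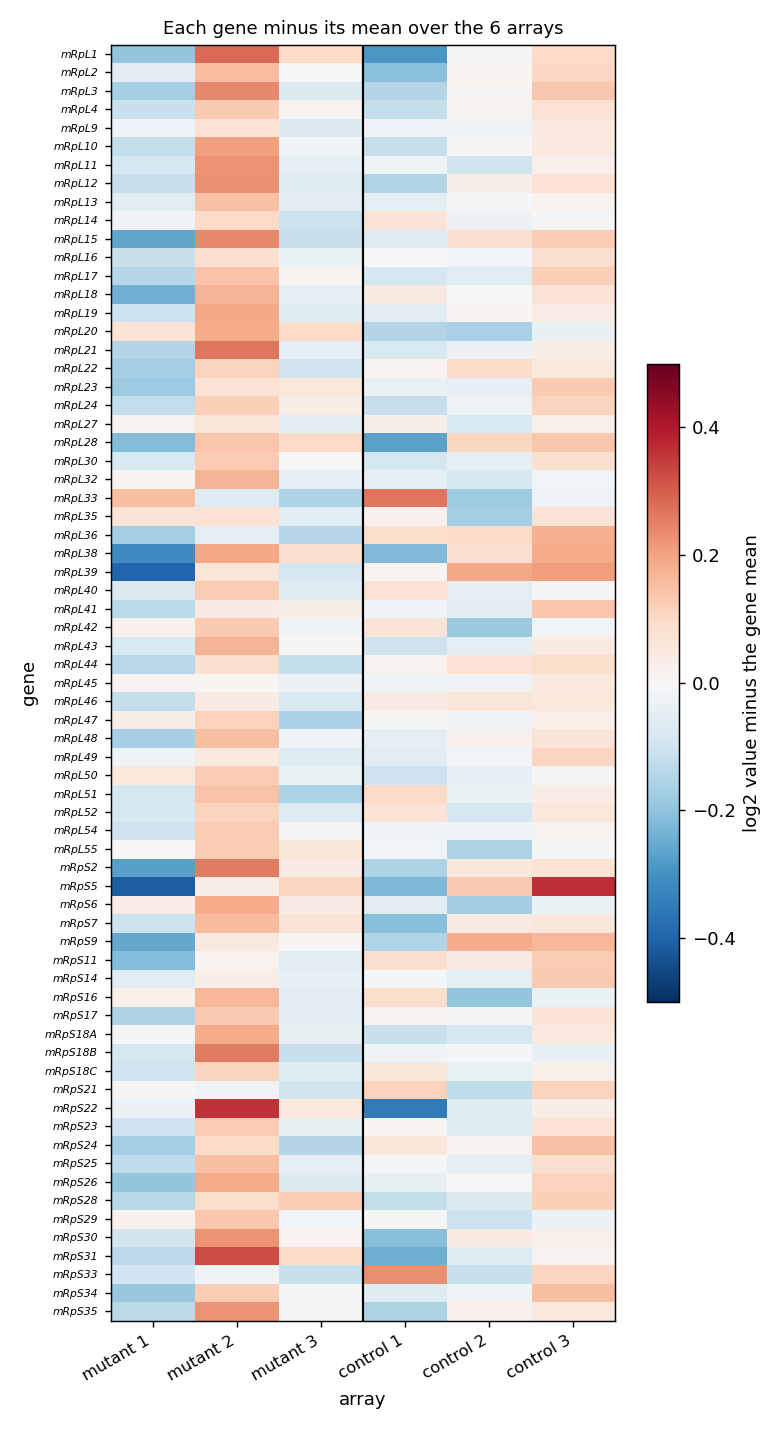
Each row is a mitochondrial ribosomal protein gene, ordered by symbol, and each column an array, with mutant arrays left of control arrays; colour gives the log2 value minus the gene's mean over the 6 arrays. The column of mutant 2 is mostly red, where 51 of 69 genes were highest, and that of mutant 1 mostly blue, where 34 were lowest.

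The median difference between the genotypes had a different sign in different pairs of arrays. In the arrays numbered 1 the median difference was -0.06, with 24 of 69 members higher in the mutant. In the arrays numbered 2 it was 0.16, with 63 members higher. In the arrays numbered 3 it was -0.10, with 9 members higher. All genes had medians of 0.01, -0.02 and -0.02 for numbers 1, 2 and 3, with 51.05%, 46.29% and 45.42% of them higher in the mutant. The sequence of lower, higher and lower was shown by 38 members (55.07%), against 11.42% of all genes, and the opposite sequence by 0 members. The 6 exceptions in the arrays numbered 2 were the 6 genes that were lower in all pairs, among them mRpL36, mRpL39 and mRpS5. Without mutant 2 the median difference of the members was -0.07, and without mutant 1 it was 0.05. Each pair is 1 array of each genotype, so these differences have no replicate error of their own.

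**Figure D3:**
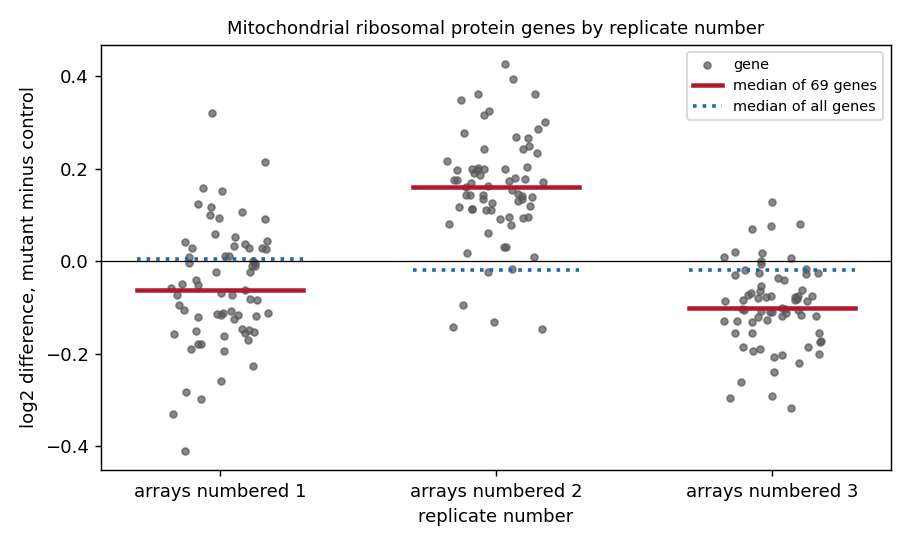
Log2 difference, mutant minus control, between arrays of the same replicate number for each of the 69 genes (points, spread sideways for view), with the median of the 69 (solid red line) and the median of all 11983 genes (dotted blue line). The red lines lie at -0.06, 0.16 and -0.10 for numbers 1, 2 and 3, while the blue lines stay between -0.02 and 0.01.

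The arrays also differed by replicate number in both genotypes, which was tested with genotype in the fit and 2 arrays per number. Between numbers 3 and 1, limma called 1 member higher, against 4.91% of all genes, and 0 members lower, against 3.35%. At an unadjusted p under 0.05 there were 5 members higher, against 17.1% of all genes, and 1 lower, against 9.3%. The gene called was mRpS5, whose bacterial counterpart lines the channel where mRNA enters. It had values of 10.76 and 11.02 in mutant 3 and control 3 and of 10.24 and 10.43 in mutant 1 and control 1, with 10.69 in mutant 2 and 10.79 in control 2. The difference was 0.56 (SE 0.10, adjusted p = 0.0395), and it had the same direction in both genotypes, while the difference between the genotypes was -0.18 (SE 0.20). The call was lost without mutant 1 (difference 0.55, adjusted p = 0.0926), without mutant 3 (0.61, adjusted p = 0.164), without control 1 (0.56, adjusted p = 0.183) and without control 3 (0.50, adjusted p = 0.244). Over the members the median of this difference was 0.07, against 0.03 over all genes, with 55 of 69 above 0, against 55.21% of all genes.

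By the F test for any difference among the numbers, limma called 0 members, against 1.59% of all genes, and 5 members at an unadjusted p under 0.05, against 22.5%. Beside mRpS5 the smallest p belonged to mRpL28, mRpL38, mRpL1, mRpS9, mRpL33, mRpS2 and mRpL39. mRpL28, counterpart of a bacterial protein of the same number, had values of 10.74, 11.09 and 11.05 in the mutant arrays and of 10.69, 11.06 and 11.09 in the control arrays. Both arrays numbered 1 were lowest, and the difference of numbers 3 and 1 was 0.36 (SE 0.10, limma adjusted p = 0.0858). mRpL38, a mitochondria-specific protein, had values of 8.94, 9.45 and 9.34 in the mutant arrays and of 9.04, 9.34 and 9.44 in the control arrays. mRpL1 had values of 9.33, 9.81 and 9.63 in the mutant arrays and of 9.24, 9.53 and 9.63 in the control arrays. In mRpL38 and mRpL1, too, both arrays numbered 1 were lowest, with differences of numbers 3 and 1 of 0.40 (SE 0.11) and 0.34 (SE 0.11). mRpS9, whose bacterial counterpart reaches the decoding region, had values of 9.93, 10.23 and 10.20 in the mutant arrays and of 10.03, 10.37 and 10.35 in the control arrays, lowest again in both arrays numbered 1. Its difference of numbers 3 and 1 was 0.29 (SE 0.10), and those of mRpS2 and mRpL39 were 0.27 and 0.25. mRpL33 ran the other way. Its values were 11.13, 10.92 and 10.83 in the mutant arrays and 11.25, 10.80 and 10.96 in the control arrays, highest in both arrays numbered 1, with a difference of -0.30 (SE 0.11).

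Numbers 2 and 1 differed by a median of 0.12 over the members, with 61 of 69 above 0, against 0.04 and 59.43% over all genes. The arrays of the 2 genotypes were also read apart in this step. Mutant 2 minus mutant 1 had a member median of 0.23, with 66 members above 0, against 0.04 and 56.56% over all genes. For control 2 minus control 1 the member median was 0.02, with 39 members above 0, against 0.05 and 60.01% over all genes. Each of these steps rests on 1 array at each end, so their difference was not tested. Between numbers 2 and 1 limma called 0 members and 0% of all genes. At an unadjusted p under 0.05 there were 12 members, against 11.6% of all genes. Numbers 3 and 2 differed by a median of -0.04 over the members. Here limma called 0 members, against 0.492% of all genes, and 0 members at an unadjusted p under 0.05, against 16.8%. The 3′ to 5′ gap of the actin control probe sets, a measure of RNA integrity on the log2 scale, was 2.37 in the arrays numbered 1, 1.68 in those numbered 2 and 1.62 in those numbered 3. In mutants 1, 2 and 3 it was 2.39, 1.53 and 1.63, and in controls 1, 2 and 3 it was 2.34, 1.84 and 1.61. Neuron markers also moved with the number. For numbers 3 minus 1, 9 of 9 were above 0 and limma called 7 of them, against 4.91% of all genes called higher. Their list mean was 8.06 to 8.76 in the mutant arrays and 7.74 to 8.65 in the control arrays. All 7 epidermal cuticle markers were below 0 for numbers 3 minus 1, and limma called 6 of them, against 3.35% of all genes called lower. Their list mean was 7.30 to 8.78 in the mutant arrays and 7.24 to 8.73 in the control arrays. Between the genotypes 1 of these 7 markers was called, against 0.159% of all genes. It was Cpr67Fa2, a cuticle protein gene that was higher in the mutant by 3.78 (limma adjusted p = 0.0214), and the list median was -0.31. Of 8 genes of dividing cells, limma called 0 between numbers 3 and 1. At an unadjusted p under 0.05 there was 1 lower, against 9.3% of all genes. Of the 8, 5 were highest in mutant 2, against 17.46% of all genes. The list mean was 7.13 to 7.72 in the mutant arrays and 7.53 to 7.64 in the control arrays. The part of RNA integrity and of these cell types in the mitochondrial ribosomal protein values was not tested.

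Other genes of mitochondrial gene expression were set beside the members. The 2 mitochondrial ribosomal proteins known under other names were read in the same way. tko, which encodes the small subunit protein at the decoding centre, had values of 11.11, 11.18 and 11.06 in the mutant arrays and of 11.0045, 11.05 and 11.15 in the control arrays (difference 0.05, SE 0.08). bonsai had values of 10.13, 10.47 and 10.27 in the mutant arrays and of 10.08, 10.21 and 10.30 in the control arrays (difference 0.09, SE 0.12). Both were highest in mutant 2.

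Of 9 translation factor genes of mitochondria, limma called 0 between the genotypes, against 0.159% of all genes, with a median difference of 0.07. At an unadjusted p under 0.05 there was 1, against 5.27%. The smallest p was that of mRRF1, which encodes the factor that recycles ribosomes after termination. It had values of 8.32, 8.73 and 8.53 in the mutant arrays and of 8.03, 8.02 and 8.11 in the control arrays. The groups did not overlap, and the difference was 0.47 (SE 0.12, limma adjusted p = 0.466, and 0.17 with the replicate block). Of 14 mitochondrial aminoacyl-tRNA synthetase genes 0 were called (median -0.03), and of 11 genes of mitochondrial transcription and genome maintenance 0 were called (median 0.07). In both lists 0 had an unadjusted p under 0.05, against 5.27% of all genes. TFAM, which packages mitochondrial DNA, differed by 0.16 (SE 0.12) and Lrpprc2, whose relatives in mammals bind mitochondrial mRNA, by 0.21 (SE 0.13).

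These lists had their highest values in mutant 2 as well. It held the top value of 7 of 9 translation factors, 10 of 14 synthetases, 8 of 11 transcription and maintenance genes and 7 of 13 import genes. The import genes Tim13, Tim17a1, Tim17a2, Tim17b1 and Tim17b2 read below the array medians, as Tim13 did with 2.79 to 3.06. They were not highest in mutant 2, and neither was Tom7 at 11.83 to 12.06. By comparison, mutant 2 held the top value of 17.46% of all genes. It held that of 4 of 76 genes for subunits of oxidative phosphorylation (5.3%) and of 7 of 41 cytoplasmic ribosomal protein genes (17.1%). These 2 lists include testis and germline paralogs. Many of the other cytoplasmic ribosomal protein genes read near the highest single value of any gene, 14.53, as RpLP1 did with 14.38 to 14.41. Those of oxidative phosphorylation covered a wider range, with ND-75 at 10.36 to 10.75 and ATPsynF at 13.95 to 14.02, for example. Whether values near the top of the scale can show a shift of this size was not tested. In the arrays numbered 2 the median difference, mutant minus control, was 0.24 for the translation factors and 0.08 for the synthetases. It was 0.19 for transcription and maintenance and 0.07 for import. For oxidative phosphorylation it was -0.01, and for cytoplasmic ribosomal proteins 0.02. The difference between these lists was not tested.

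**Figure D4:**
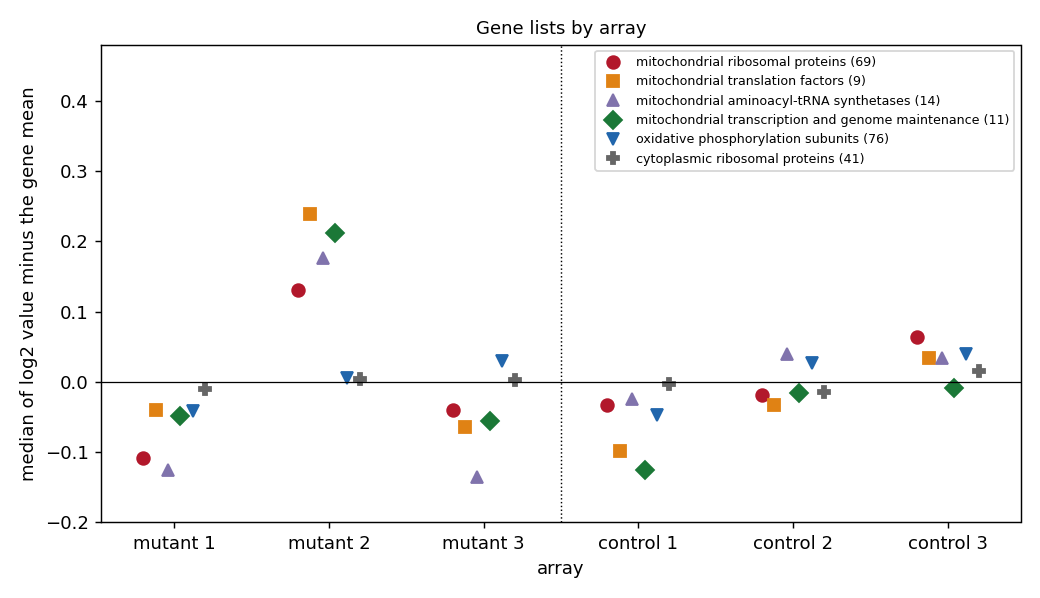
Median over each gene list of the log2 value minus the gene's mean over the 6 arrays, for each array, with mutant arrays left of control arrays and the number of genes in brackets. The drawn lists of mitochondrial gene expression lie between 0.13 and 0.24 in mutant 2. Oxidative phosphorylation subunits and cytoplasmic ribosomal proteins lie at 0.01 and 0.00 there. Import genes and genes of dividing cells, not drawn, had 0.11 and 0.25 in mutant 2.

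Between the genotypes limma called 0 of 76 oxidative phosphorylation genes and 0 of 41 cytoplasmic ribosomal protein genes, against 0.159% of all genes. At an unadjusted p under 0.05 there were 1 and 2, against 5.27%. In the list of oxidative phosphorylation UQCR-11, a subunit of respiratory complex III, had the smallest p, with values of 6.83, 6.85 and 6.94 in the mutant arrays and of 6.34, 6.18 and 6.41 in the control arrays (difference 0.57, SE 0.09, limma adjusted p = 0.124, and 0.0619 with the replicate block). Between numbers 3 and 1, ATPsynbeta, the catalytic subunit of ATP synthase, was higher by 0.52 (limma adjusted p = 0.045). It was the 1 gene called of its 76, against 4.91% of all genes called higher and 3.35% called lower.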

How the data were processed

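RNA was hybridised to 6 Affymetrix arrays, 3 per genotype, grouped and numbered by the sample titles. Each deposited number is a log2 value for 1 probe set, which the authors obtained by RMA, per the submitters' processing notes. No RMA version is named there, and the scale was judged log2 because of the values' range. RMA aligns the arrays' distributions, which hides shifts common to most genes. Of 18952 probe sets, 183 controls were dropped and 13647 name 1 gene. Symbols come from the platform table, and arms and gene order from a RefSeq table in which 69 of 69 members were found.

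The genotypes were fitted with limma (version 3.58.1, R 4.3.3, two-sided) over all 11983 genes, with Benjamini-Hochberg adjustment, and the replicate numbers likewise with genotype as a term. The members and lists were chosen with earlier results of these data known. Array values are printed for the 8 members with the smallest genotype p, the 8 with the smallest F p, members of known role, the S18 paralogs and members with a second probe set. mRpL46, mRpL55, mRpS33, mRpL50, mRpS16 and mRpS28 were named after their values were seen. Same-numbered arrays, by the titles, shared deviations, with r of 0.684, 0.151 and 0.756 for numbers 1, 2 and 3 over all genes. Over all genes this sharing was weak for number 2. Over the 69 members r was 0.783, 0.583 and 0.694 for numbers 1, 2 and 3. The main genotype fit did not pair the arrays. Genotype SEs, intervals and p-values are therefore unpaired unless the replicate block is named. Pairing by number entered only in the fit with that block and in the differences between same-numbered arrays. The fits were tested on simulated data, with noise drawn independently for each gene and array, so without deviations shared by many genes of 1 array. There the genotype fit recovered 67.1% of 2-fold changes without the block and 70.7% with it. Changes smaller than 2-fold were not simulated. Precision is limited by the number of arrays. Plots used matplotlib 3.10.9.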

Additional observations from a re-analysis of the deposited data

Results flagged for a closer look

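The step between replicate numbers 2 and 3 ran in opposite directions in the genotypes. The median over the 69 genes of mutant 3 minus mutant 2 was -0.1585, with 67 members lower in mutant 3. For control 3 minus control 2 it was 0.0858, with 64 members higher in control 3. The same medians over all genes were 0.01 in the mutant and 0.00 in the control, with 51.67% and 50.39% of all genes above 0. Each step rests on 1 array at each end, so this difference was not tested.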

How the results depend on the processing

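In each of the 15 alternatives run, limma called 0 members between the genotypes. Over all genes 19 were called. This count was 98 when replicate number entered as a block, which paired the arrays and changed no call of a member. It was 82 under array weights, 35 when each probe set was tested by itself, 11 in the brightest 60% of genes and 0 if both arrays numbered 1 were dropped. Dropping 1 array at a time gave 5 to 18. The member median of 0.0029 then ranged from -0.0703 (without mutant 2) to 0.0506 (without mutant 1), and was also below 0 without control 1 or control 2. Among 29 members with values by array, none called in any setting, 37 of 435 alternative values had the opposite sign. Between numbers 3 and 1 the single member called became 0 to 1, and the 989 genes called 60 to 1257, as each array was dropped. Higher calls were 59.5% of these, 53.2% under quantile normalization or median centring, and 69% under a trended robust prior. They were 5.8% without mutant 3, 4.8% without control 1 and 1.7% without control 3, and 52.2% to 54.7% without each of the other arrays. The F test called 190 genes, but 24 in the brightest 60%, 307 under array weights, 313 under a trended robust prior and 35 to 684 as each array was dropped, with 0 members in every case. The causes were not tested. A fit without 1 array leaves a number with a lone array, which is assumed to vary like the rest. Precision is limited by the number of arrays. Signal over background was not given by these values.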
